A study of Mus musculus with 7 samples.

Results

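The Sox transcription factors described here are the 7 members of groups C, D and E named *Sox4*, *Sox11* and *Sox12* (SoxC), *Sox5* and *Sox6* (SoxD), and *Sox8* and *Sox9* (SoxE). They were taken from the per-library gene counts by matching gene symbols to Ensembl identifiers, which gave 7 of 56748 genes. RNA came from muscle stem cells (MuSCs) of adult mouse hind limb muscle, in 3 WT libraries and 4 libraries from homozygous *Jag2sm* mice. *Jag2* encodes a NOTCH ligand, and the *Jag2sm* allele carries a missense change in the first EGF repeat of the protein. The sample labels write the mutant genotype as Jag2-/-, whereas the study's methods describe a homozygous missense allele of a mouse stock that is not tissue-restricted, so the mutation was present in every cell of the animal. Mice of both sexes were used in the study, and the sex behind each library was not given in the sources used here. Cells of both genotypes were depleted of CD31+, CD45+ and Sca1+ cells, captured with an antibody to integrin α7 on magnetic beads, and kept on collagen in growth medium with 20% FBS and 20 ng/ml bFGF. Each library was labelled with a batch that equals its replicate number, so batches 1 to 3 held 1 library of each genotype and batch 4 held a *Jag2sm* library alone.

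Reads counted on genes numbered 187834, 1657016 and 1159203 in WT replicates 1, 2 and 3. In *Jag2sm* replicates 1 to 4 they numbered 671660, 1421058, 1937581 and 1223863. WT replicate 1 was thus the shallowest library, where 3 reads corresponded to a normalised count of 17 CPM (reads on genes divided by the effective library size and multiplied by 1e6). In that library 45.1% of aligned reads were assigned to no annotated feature by the counting, against 20.8% to 25.7% in the other 6 libraries. Reads that did not align made up 2.44% to 3.24% of the WT libraries and 3.07% of *Jag2sm* replicate 3, but 50.8%, 46.7% and 46% of *Jag2sm* replicates 1, 2 and 4. That share moved with genotype apart from *Jag2sm* replicate 3, and its part in the results was not tested. *Jag2* itself measured 79.3, 112 and 114 CPM in WT and 41.7, 77.4, 70.7 and 76.1 CPM in *Jag2sm*. All 4 mutant libraries lay below the 3 WT libraries, with a log2 fold change of −0.64 ± 0.24 (SE) that did not pass the edgeR quasi-likelihood test (adjusted p = 0.166). A missense allele need not lower its own transcript, so the count does not check the genotype labels.

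Sox proteins bind DNA through an HMG box, a domain that sits in the minor groove and bends the helix. SoxC factors act in embryonic and tissue progenitors. SoxD factors lack a recognised activation domain and work with partner proteins, and *Sox6* is known in muscle for repressing slow fiber genes. SoxE factors are best known in cartilage and the neural crest, and *Sox8* and *Sox9* have been described in satellite cells. The kinship of the 7 genes is visible in the first 60 bases of the HMG box coding sequence, taken from the GRCm39 transcripts of GENCODE M39, read 5′ to 3′ on the coding strand. Capitals mark the 21 bases that encode the conserved start of the box.
Sox4: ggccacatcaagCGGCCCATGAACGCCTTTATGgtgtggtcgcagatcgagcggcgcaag
Sox11: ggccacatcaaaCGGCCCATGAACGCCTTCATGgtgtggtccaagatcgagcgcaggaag
Sox12: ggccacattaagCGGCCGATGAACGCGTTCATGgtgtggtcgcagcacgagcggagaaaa
Sox5: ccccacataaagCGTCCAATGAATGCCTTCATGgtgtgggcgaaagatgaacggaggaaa
Sox6: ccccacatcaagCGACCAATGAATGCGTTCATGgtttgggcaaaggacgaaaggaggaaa
Sox8: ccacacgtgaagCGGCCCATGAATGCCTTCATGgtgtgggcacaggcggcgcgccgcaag
Sox9: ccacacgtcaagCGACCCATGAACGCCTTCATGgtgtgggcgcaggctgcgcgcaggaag

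These stretches lie in exon 1 of 1 in *Sox4* (chr13:29136777-29136836, minus strand), *Sox11* (chr12:27392210-27392269, minus) and *Sox12* (chr2:152239448-152239507, minus). In *Sox5* (chr6:143786952-143787011, minus) and *Sox6* (chr7:115088950-115089009, minus) they lie in exon 13 of 15. In *Sox8* (chr17:25789149-25789208, minus) and *Sox9* (chr11:112673717-112673776, plus) they lie in exon 1 of 3. Over 216 bases of the box, *Sox4* and *Sox11* were 90.7% identical, *Sox4* and *Sox12* 86.1%, *Sox11* and *Sox12* 84.7%, *Sox8* and *Sox9* 86.6%, and *Sox5* and *Sox6* 83.3%. Pairs from different groups shared 54.2% to 74.5% of bases. The longest identical run between any 2 member transcripts was 48 bases, between *Sox4* and *Sox11*. Exons of other genes on the opposite strand cover 18.9% of the exon length of *Sox4* (A330102I10Rik), 13.0% of *Sox9* (BC006965), 12.5% of *Sox5* and 3.0% of *Sox6*, and none of *Sox11*, *Sox12* and *Sox8*. The strand setting and annotation of the counting were not given, so how reads over these shared stretches were assigned is not known.

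In WT cells *Sox11* and *Sox4* were the most abundant members per kb of exon. The level of *Sox11* was 29.4 ± 7.63 CPM per kb (SD, n = 3) and that of *Sox4* was 25.7 ± 7.05, and their libraries overlapped. *Sox9* followed at 15.2 ± 3.92 and stood apart from its neighbors on both sides. *Sox12* (5.08 ± 1.26), *Sox8* (3.06 ± 1.77) and *Sox6* (2.09 ± 2.43) came next, each overlapping the gene after it in the order up to *Sox6*. *Sox5* was last at 0.0200 ± 0.0346 CPM per kb, from 1 read in 3 libraries. The order was different in *Jag2sm*. *Sox4* was highest at 52.9 ± 7.73 CPM per kb (SD, n = 4), overlapping *Sox9* at 38.2 ± 25.2, and *Sox11* came after them at 17.5 ± 4.23 with its highest library just below the lowest of *Sox9* (22.7 and 22.8). *Sox12* (5.93 ± 1.82) and *Sox8* (1.63 ± 2.07) kept their places, and the *Sox8* libraries overlapped those of *Sox5*. *Sox5* (0.210 ± 0.166) and *Sox6* (0.137 ± 0.0882) were lowest and overlapped each other. These orders rest on dividing counts by the exon length of each gene, which need not fit long reads. In CPM not divided by length, the WT libraries of *Sox11* (201 to 317) lay above those of *Sox4* (96.3 to 161) without overlap, *Sox6* lay above *Sox12* in WT replicate 1 (79.3 and 28.3) and below it in WT replicates 2 and 3, and the *Jag2sm* libraries of *Sox9* (95.3 to 317) and *Sox11* (103 to 189) overlapped.

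**Figure D1:**
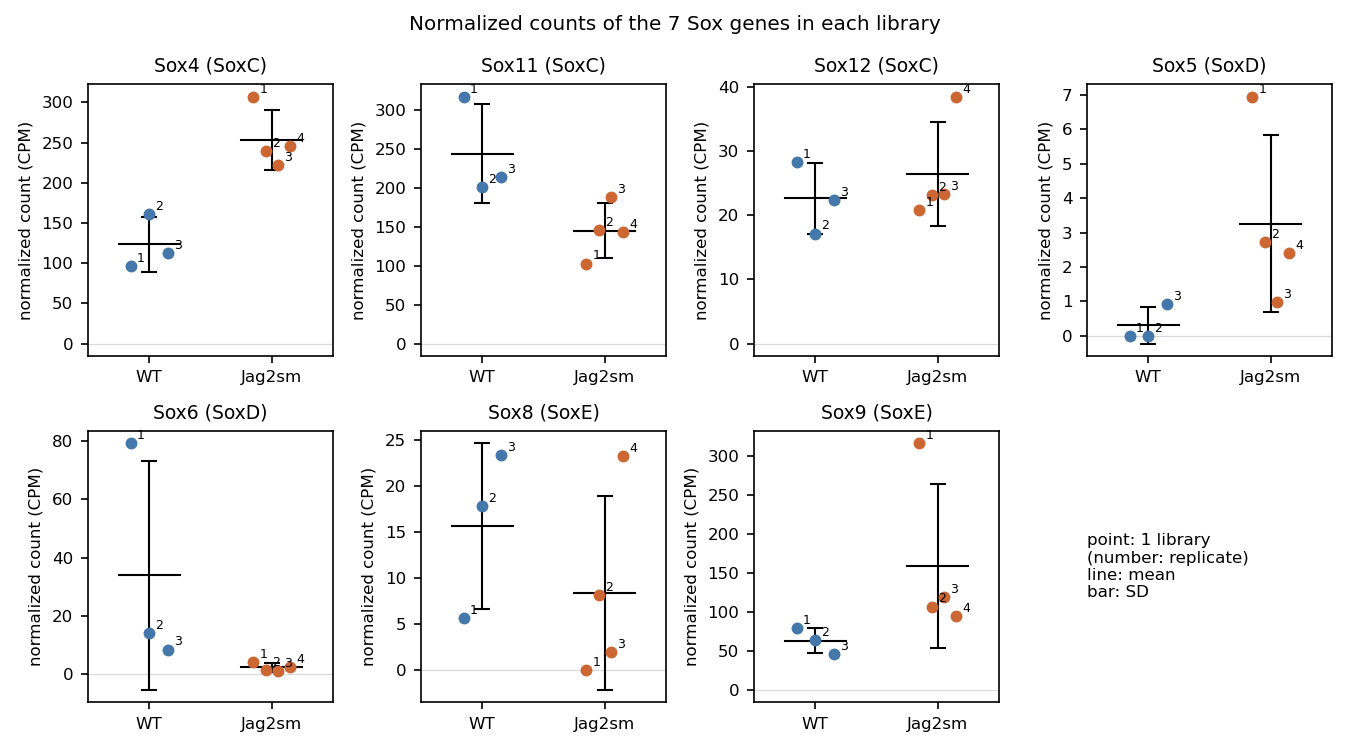
Normalised counts (CPM, linear axis) of the 7 Sox genes in the 3 WT and 4 *Jag2sm* libraries. Each point is 1 library with its replicate number, the line is the mean and the bar the SD. The genotypes do not overlap for *Sox4*, *Sox11*, *Sox9* and the untested *Sox6*. Among all genes tested, 22.5% did not overlap. The *Sox5* values do not overlap either, but 0 reads in WT replicate 1 allow up to 17 CPM, so that separation is not established.

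*Sox4* was called higher in *Jag2sm*, a call that depended on the fit. This single-exon SoxC gene (chr13:29132902-29137696, minus strand) measured 96.3, 161 and 113 CPM in WT and 307, 239.6, 222 and 246 CPM in *Jag2sm*. Every mutant library was above every WT library, and *Jag2sm* replicate 1 was the highest. The means were 123 ± 33.8 (SD, n = 3) and 254 ± 37.1 CPM (SD, n = 4), a log2 fold change of 0.99 ± 0.24 (SE) with adjusted p = 0.0344 in edgeR. The exact two-sided permutation test over libraries gave p = 0.0286, the smallest that 35 splits allow. Across all 9489 genes tested, 1.42% were called higher, 4.84% lower and 6.26% in either direction, and of the 7 Sox members 5 passed the filter on low counts and 1 was called. Within batches 1, 2 and 3 the log2 CPM of *Sox4* differed by 1.66, 0.57 and 0.97. With batch as a replicate block the difference was 1.02 and the call was lost (adjusted p = 0.108). The call was also lost without WT replicate 3 (0.90, adjusted p = 0.181), *Jag2sm* replicate 1 (0.89, adjusted p = 0.0728), *Jag2sm* replicate 2 (1.03, adjusted p = 0.0907) or *Jag2sm* replicate 4 (1.01, adjusted p = 0.0639).

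*Sox11*, the closest relative of *Sox4* (chr12:27384263-27392573, minus strand), lay on the other side. It measured 317, 201 and 214 CPM in WT and 103, 146, 189 and 143 CPM in *Jag2sm*. All mutant libraries were below all WT libraries, although *Jag2sm* replicate 3 came close to WT replicate 2. The log2 fold change was −0.71 ± 0.26 (SE), which was not called in edgeR (adjusted p = 0.147; exact permutation p = 0.0571). The difference was −1.61 in batch 1, −0.46 in batch 2 and −0.18 in batch 3, so that it was largest in the batch that holds the shallowest WT library. Without WT replicate 1 it was −0.51 (adjusted p = 0.235). Across the 17 alternative fits it ranged from −0.98 to −0.31 and was never called.

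*Sox12*, a weaker activator than its SoxC relatives (chr2:152235531-152239983, minus strand), was the least abundant of the 3. It measured 28.3, 17.1 and 22.4 CPM in WT and 20.8, 23.1, 23.2 and 38.4 CPM in *Jag2sm*. The genotypes overlapped, with WT replicate 1, on 5 reads, above 3 of the mutant libraries. The log2 fold change was 0.35 ± 0.31 (SE; adjusted p = 0.587 in edgeR), and the within-batch values took both signs, −0.41, 0.40 and 0.05.

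The summed level of the SoxC genes overlapped between the genotypes. It was 442, 379.7 and 349 CPM in WT and 431, 409, 434 and 428 CPM in *Jag2sm*, with means of 390.3 ± 47.1 (SD, n = 3) and 425 ± 11.3 (SD, n = 4). Within the sum, the 2 more abundant members were set against each other. Of the reads on *Sox4* or *Sox11*, *Sox4* took 23.3% (exact binomial 95% interval 14.2 to 34.6), 44.5% (40.4 to 48.7) and 34.5% (29.5 to 39.7) in the WT libraries. In *Jag2sm* it took 74.9% (69.6 to 79.8), 62.1% (58.0 to 66.2), 54.0% (50.6 to 57.4) and 63.2% (58.7 to 67.5). *Sox11* reads outnumbered *Sox4* reads in 3 of 3 WT libraries and *Sox4* reads outnumbered *Sox11* reads in 4 of 4 mutant libraries. The intervals cover counting error only, and this share was looked at after the values of both genes had been seen.

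**Figure D2:**
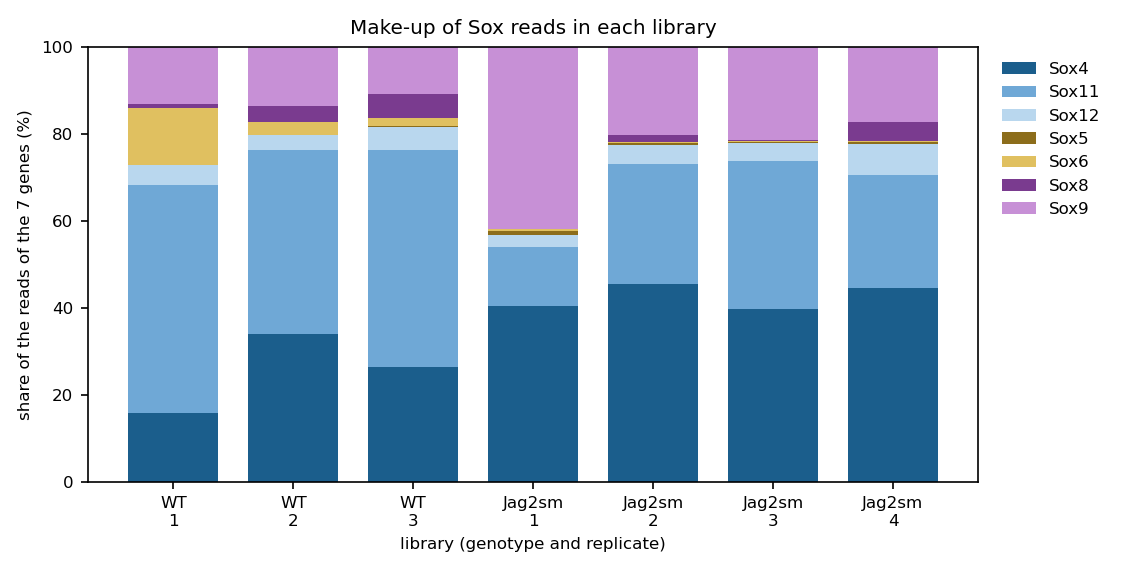
Share of the reads on the 7 Sox genes taken by each gene (%), 1 bar per library. *Sox4* (dark blue) fills 15.9% to 33.9% of the WT bars and 39.8% to 45.4% of the *Jag2sm* bars, and *Sox9* (pale purple) fills 41.8% of *Jag2sm* replicate 1.

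Counted against all 7 members, *Sox4* made up 25.4% ± 9.05 of reads in WT and 42.6% ± 2.83 in *Jag2sm*. *Sox11* made up 48.2% ± 5.24 in WT and 25.3% ± 8.53 in *Jag2sm*. The share of *Sox9* was 12.5% ± 1.41 in WT and 25.2% ± 11.2 in *Jag2sm*, where 1 library carried most of the spread. *Sox12* took a similar small share in both genotypes, 4.50% ± 0.820 and 4.57% ± 1.76 (SD, n = 3 and 4 throughout).

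The SoxD genes had few reads, and neither passed the filter on low counts. *Sox6* (chr7:115070106-115638860, minus strand) had 14, 22 and 9 reads in WT and 3, 2, 2 and 3 reads in *Jag2sm*. Its normalised counts were 79.3, 14.0 and 8.39 CPM in WT and 4.17, 1.36, 0.968 and 2.40 CPM in *Jag2sm*. Every mutant library was below every WT library, and WT replicate 1 was far above the other 2. Pooled over libraries, 45 WT reads faced 10 mutant reads, a log2 ratio of −3.13 per effective library size (95% interval −4.29 to −2.12, counting error only). *Sox6* was lower within batches 1, 2 and 3 by log2 CPM differences of −3.79, −2.37 and −1.93. It was called lower where the low-count filter was dropped (edgeR, −3.45, adjusted p = 2.53e-07), with DESeq2 (−3.83, adjusted p = 0.000927), without WT replicate 1 (−2.55, adjusted p = 0.0375) and without WT replicate 3 (−4.17, adjusted p = 0.0278). Without the low-count filter adjusted p-values were far smaller for some other genes as well. *Rgs5*, a gene with 1 outlying mutant library, had 6.71e-23 there and 0.135 in the main edgeR fit. A call of the unfiltered fit thus carries little weight. In the fits with a library left out, *Sox6* passed the low-count filter only through WT, where it was high. *Sox6* calls in those fits are thus not independent of the difference. It was not called without *Jag2sm* replicate 1 (−3.69, adjusted p = 0.0572), without *Jag2sm* replicate 4 (−3.53, adjusted p = 0.0629) or with *Jag2sm* replicate 3 as the sole mutant library (−4.14, adjusted p = 0.216). That fit keeps the mutant library whose unaligned share was like that of WT, and takes its spread from the WT libraries alone, so a missing call there says little.

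*Sox5*, the SoxD partner of *Sox6* in cartilage (chr6:143774151-144727703, minus strand), had 0, 0 and 1 read in WT and 5, 4, 2 and 3 reads in *Jag2sm*. The mutant libraries held 0.968 to 6.95 CPM, close to the 1.45 to 4.17 CPM that 3 reads were worth there. The pooled log2 ratio was 2.84, with a 95% interval of 0.13 to 8.25 that rests on 1 WT read. No test called *Sox5* (DESeq2, adjusted p = 0.483; edgeR with no low-count filter, adjusted p = 0.324). The SoxD sum followed *Sox6* in WT, at 79.3, 14.0 and 9.32 CPM, and was 11.1, 4.07, 1.94 and 4.80 CPM in *Jag2sm*, so that *Jag2sm* replicate 1 overlapped WT replicate 3.

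Of the SoxE genes, *Sox9* (chr11:112673009-112678586, plus strand), the factor that directs cartilage formation, was higher in each mutant library. It measured 79.3, 64.1 and 46.6 CPM in WT and 317, 107, 119 and 95.3 CPM in *Jag2sm*. The genotypes did not overlap, and *Jag2sm* replicate 1 lay far above the other 3 mutant libraries. The means were 63.3 ± 16.4 (SD, n = 3) and 160 ± 105 CPM (SD, n = 4). The log2 fold change of 1.38 ± 0.45 (SE) missed the threshold in edgeR (adjusted p = 0.101; exact permutation p = 0.0571). Among all genes tested 22.5% did not overlap between genotypes, 10.3% with *Jag2sm* higher and 12.2% with it lower, against 3 of the 5 Sox members tested (*Sox4* and *Sox9* higher, *Sox11* lower). Within batches the log2 CPM of *Sox9* was higher by 1.98, 0.73 and 1.32. With the replicate block the log2 fold change was 1.30 and *Sox9* was called (adjusted p = 0.0451), as it was with DESeq2 (1.40, adjusted p = 0.0427) and without the low-count filter (1.40, adjusted p = 0.000129). The call of the unfiltered fit carries little weight, for the reason given with *Sox6*. Without *Jag2sm* replicate 1 the log2 fold change of *Sox9* was 0.84 (adjusted p = 0.0881).

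*Sox8*, the other SoxE gene (chr17:25784634-25789726, minus strand), overlapped between the genotypes. It measured 5.66, 17.8 and 23.3 CPM in WT and 0, 8.15, 1.94 and 23.2 CPM in *Jag2sm*. *Jag2sm* replicate 4 matched the highest WT library and *Jag2sm* replicate 1, the library with the most *Sox9*, held no *Sox8* read, which allows up to 4.17 CPM. The log2 fold change was −1.10 ± 0.78 (SE; adjusted p = 0.484 in edgeR). Within batches 1 to 3 it was −2.13, −0.99 and −2.79, where the batch 1 value sets 1 WT read against 0 mutant reads. Without *Jag2sm* replicate 4, which has no WT partner, the log2 fold change was −2.26 (adjusted p = 0.0950). Over all omissions of 1 library it ranged from −2.26 to −0.69. The summed SoxE level was 84.9, 81.9 and 69.9 CPM in WT and 317, 115, 121 and 119 CPM in *Jag2sm*, and the genotypes did not overlap.

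**Figure D3:**
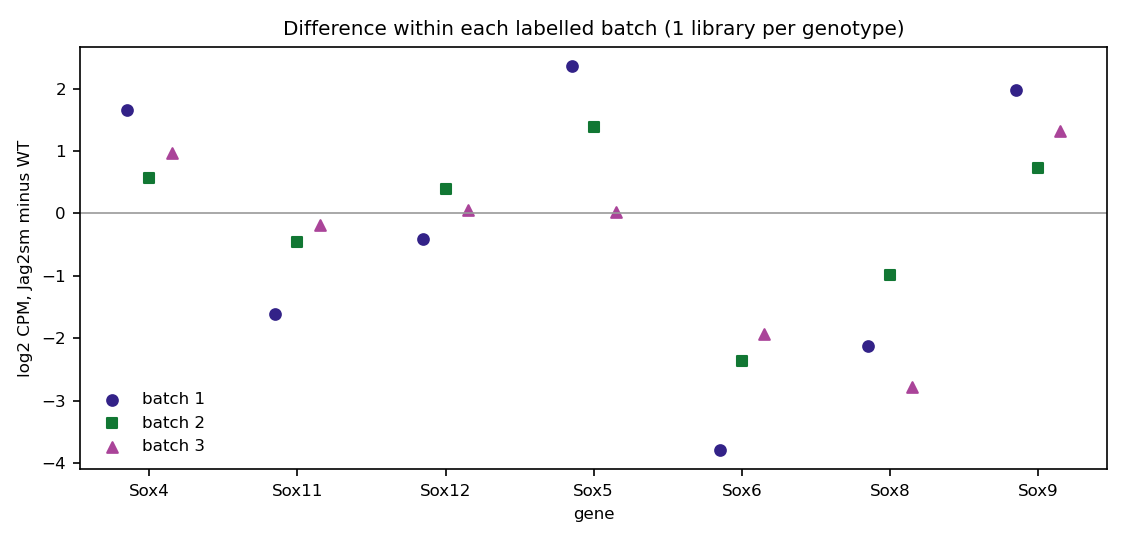
Difference in log2 CPM, *Jag2sm* minus WT, of each Sox gene within labelled batches 1, 2 and 3, with 1 library per genotype and batch. *Sox4*, *Sox9* and *Sox5* lie above 0 and *Sox11*, *Sox6* and *Sox8* below 0 in all 3 batches. The *Sox5* values rest on 0, 0 and 1 WT read, with a difference of 0.02 in batch 3. The *Sox8* value of batch 1 rests on 1 WT read against 0 mutant reads.

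**Figure D4:**
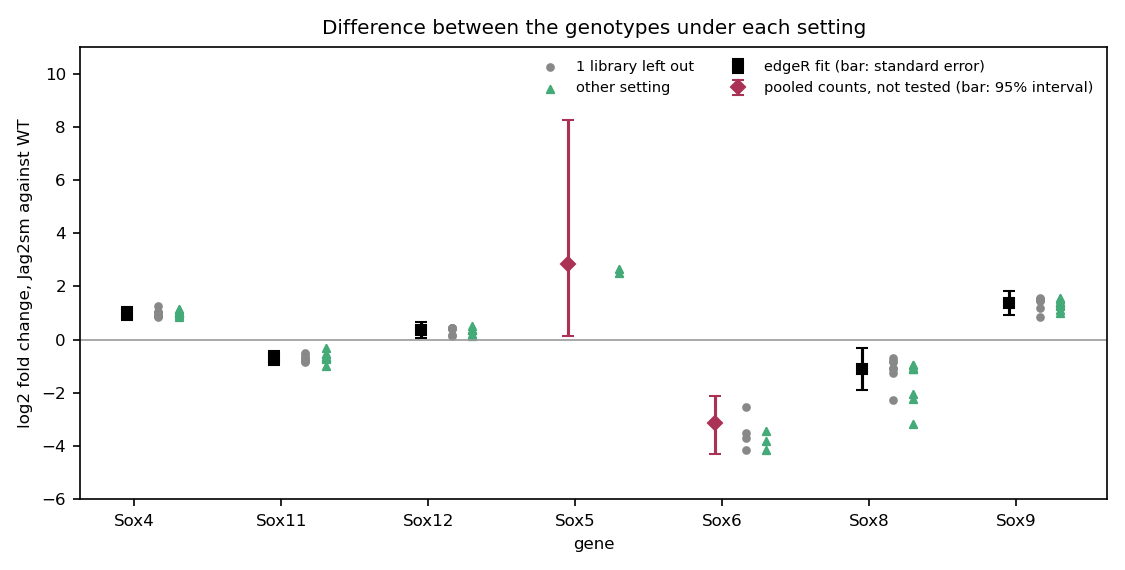
Log2 fold change of each Sox gene, *Jag2sm* against WT. Black squares are the edgeR fit with the SE, red diamonds are pooled counts of the 2 untested genes with a 95% interval, gray dots leave out 1 library and green triangles are the other settings. No gene changes sign under the settings that could fit it, and *Sox4* runs from 0.84 to 1.27.

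The regions before the transcription starts were searched for short motifs, from 250 bases before to 50 bases after the start of 1 transcript per gene. For *Sox6* and *Sox5* that transcript starts inside the annotated gene, whose 5′ end lies at chr7:115638860 and chr6:144727703. Other start sites of these genes were not searched. *Sox4* is shown because it alone held the core of the motif read by RBPJ, the DNA-binding partner of the NOTCH intracellular domain, and *Sox6* because it holds a motif read by Sox proteins themselves. Capitals mark TGGGAA, beginning 86 bases before the *Sox4* start, and ACAAAG, beginning 17 bases before the *Sox6* start. The stretches come from the GRCm39 genome at chr13:29137750-29137809 and chr7:115445403-115445462, both on the minus strand.
Sox4: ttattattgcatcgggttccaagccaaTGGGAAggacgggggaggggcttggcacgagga
Sox6: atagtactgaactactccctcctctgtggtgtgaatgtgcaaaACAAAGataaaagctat

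On either strand, TGGGAA occurs in 25.9% of 21757 promoters of the same length and ACAAAG in 18.2%, so both matches are common by letters alone. *Sox5* also held ACAAAG, 28 bases before its start. The other SOX motif searched, ACAATG, occurs in 10.8% of promoters and the TATA box TATAAA in 13.2%, and none of the 7 windows held either. The E-box CANNTG, which myogenic regulators bind and which occurs in 70.6% of promoters, was found in the windows of *Sox4*, *Sox11*, *Sox12*, *Sox6* and *Sox8*. A match is a description of the sequence and no evidence of binding.

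Of the 13 other Sox genes, 10 had no read in any library. They were *Sry*, *Sox1*, *Sox2*, *Sox3*, *Sox7*, *Sox14*, *Sox15*, *Sox17*, *Sox18* and *Sox21*, for which 0 reads allow up to 1.06 CPM over the WT libraries and 0.545 CPM over the *Jag2sm* libraries. They include the whole of SoxF (*Sox7*, *Sox17* and *Sox18*), known from endothelium, and *Sox15*, a factor studied in myoblasts. *Sox10*, a neural crest and Schwann cell factor, had 0 reads in WT and 2 in *Jag2sm*. *Sox13*, the remaining SoxD gene, had 5 and 4 reads and *Sox30* had 4 and 1. None of these passed the filter on low counts. The related HMG box factors of WNT signaling gave 3 tested genes of 4 and no call. *Tcf7l2* had a log2 fold change of 0.21 (adjusted p = 0.816 in edgeR) and *Tcf7l1* of −0.62 (adjusted p = 0.428).

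Genes that SoxC factors are known to act on gave a single call. Of 5 listed genes 4 were tested, 1 was called higher and none lower, with a median log2 fold change of 0.61 beside 0.0487 for all tested genes. *Tubb3*, a neuronal tubulin and a described SoxC target, had 11.3, 3.81 and 0.932 CPM in WT and 9.72, 22.4, 33.9 and 13.6 CPM in *Jag2sm*. WT replicate 1, where 3 reads were worth 17 CPM, lay above 1 mutant library. The log2 fold change was 2.64 ± 0.66 (SE; adjusted p = 0.0396 in edgeR), and 10 of 15 alternative fits called it. The call was lost without WT replicate 2 (2.93, adjusted p = 0.155), WT replicate 3 (2.04, adjusted p = 0.206), *Jag2sm* replicate 2 (2.60, adjusted p = 0.0969) or *Jag2sm* replicate 3 (2.26, adjusted p = 0.0523). *Cald1*, which encodes caldesmon, was 0.76 (adjusted p = 0.240) and *Ezh2*, a histone methyltransferase, 0.39 (adjusted p = 0.599). *Dcx*, a microtubule protein of migrating neurons and the other described SoxC target of that kind, had 2, 25 and 8 reads in WT and 0, 1, 0 and 0 reads in *Jag2sm*. It was below the filter, and DESeq2 called it lower (−5.60, adjusted p = 0.000879). *Dcx* was chosen for mention after its values were seen.

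Cartilage genes that SOX9 activates were at or near 0. None of 15 passed the filter, and *Cnmd* and *Snorc* had no read at all. Their summed level was 0, 6.98 and 14.0 CPM in WT and 38.9, 7.47, 9.68 and 14.4 CPM in *Jag2sm*. *Col2a1*, the main cartilage collagen and the best-known SOX9 target, had no read in WT and 17, 1, 1 and 0 reads in *Jag2sm*. Nearly all of these fell in *Jag2sm* replicate 1, the library with the highest *Sox9*. *Col2a1* was called higher with no low-count filter (edgeR, 5.48, adjusted p = 0.00890) and was not called with DESeq2 (4.49, adjusted p = 0.280). The unfiltered call carries little weight, as described for *Sox6*. *Col27a1*, the most abundant gene of the list, had 0, 8 and 10 reads in WT and 5, 5, 6 and 7 reads in *Jag2sm*, in which the genotypes overlapped.

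Slow fiber genes, the class that SOX6 is known to repress, were lower in *Jag2sm* together with *Sox6*. Of 11 listed, 9 were tested, 7 were called lower and none higher, with a median log2 fold change of −3.24. *Tnni1*, the slow troponin I, fell from 4660.5, 1954 and 2395 CPM in WT to 463, 247, 88.1 and 376 CPM in *Jag2sm*. No mutant library came near WT, and the log2 fold change was −3.36 ± 0.52 (SE; adjusted p = 0.00605 in edgeR). *Casq2* fell by 3.34 on the log2 scale (adjusted p = 0.00686) and *Tnnc1* by 3.24 (adjusted p = 0.0101). *Myl2* fell by 4.89 (adjusted p = 0.00749), or −3.85 when WT replicate 1, its highest library, was left out. *Myl2* had 96 reads in WT and 9 in *Jag2sm*. It passed the low-count filter only through WT, where it was high, so its call is not independent of the difference. *Tnnt1*, at −2.28 (adjusted p = 0.0606), was not called, except with the replicate block (−3.35, adjusted p = 0.0108) and in 6 other alternatives. *Tpm3*, at 445 ± 307 CPM in WT and 215 ± 45.6 CPM in *Jag2sm*, was not called (adjusted p = 0.174). *Prox1*, a slow fiber regulator called at −1.32 (adjusted p = 0.0332), was not called with the block (adjusted p = 0.141) and was called in 5 of 15 alternative fits. Without *Jag2sm* replicate 2, 4 genes of the list were called.

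Fast fiber genes were lower in *Jag2sm* as well. All 9 tested of 12 listed were called lower, with a median log2 fold change of −3.69. *Myh4*, a fast myosin heavy chain, was −5.55 (adjusted p = 0.00152 in edgeR), with 170 reads in WT and 8 in *Jag2sm*. *Myh4* passed the low-count filter only through WT, where it was high, so its call is not independent of the difference. *Atp2a1*, the fast calcium pump, was −3.79 (adjusted p = 0.00311) and *Casq1* −4.03 (adjusted p = 0.00324). *Tnni2* was −3.30 and *Tnnt3* also −3.30 (adjusted p = 0.00539 for both).

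**Figure D5:**
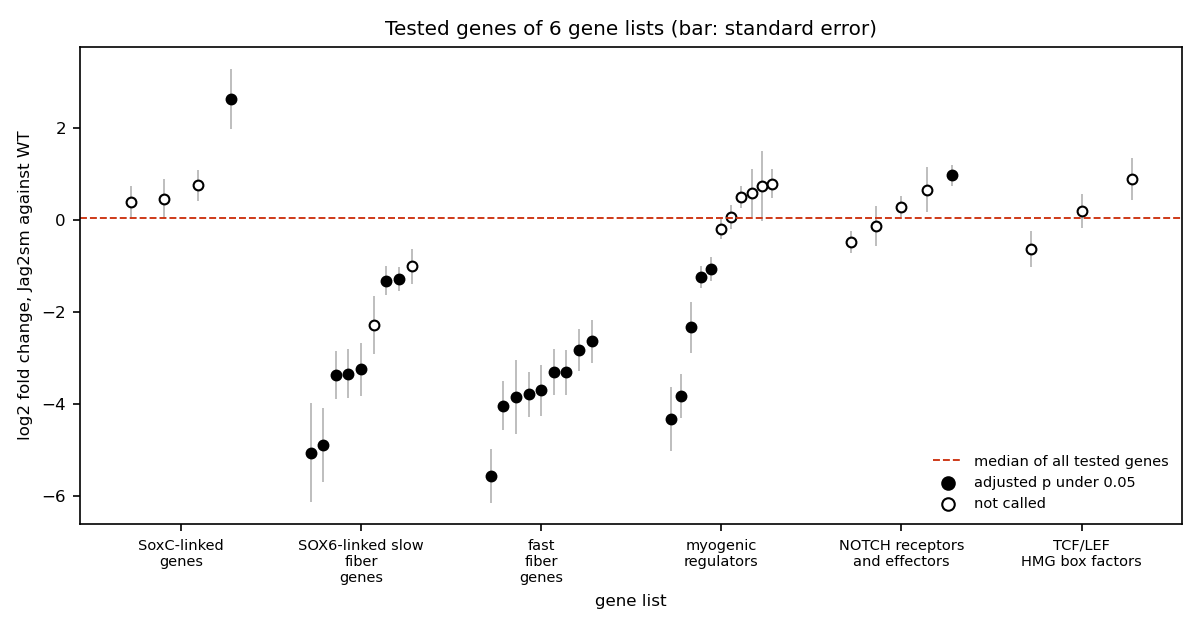
Log2 fold change of the tested genes of 6 lists, *Jag2sm* against WT, with the SE. Filled points were called at an adjusted p under 0.05 and the dashed line is the median of all tested genes, 0.0487. The slow and fast fiber genes all lie below it, with medians of −3.24 and −3.69.

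Among regulators of myogenesis 5 of 11 tested genes were called lower and none higher, with a median log2 fold change of −0.19. *Mef2c* (−3.83, adjusted p = 0.00285 in edgeR), *Myf6* (−4.33, adjusted p = 0.00656, or −3.56 when WT replicate 1 was left out), *Mef2a* (−1.23, adjusted p = 0.0131) and *Myog* (−2.33, adjusted p = 0.0300), all factors of differentiation, fell. *Myf6* had 124 reads in WT and 16 in *Jag2sm*. It passed the low-count filter only through WT, where it was high, so its call is not independent of the difference. *Mef2d* was the fifth (−1.06, adjusted p = 0.0366) and kept its call in 8 of 17 alternatives. It lost the call with the replicate block (adjusted p = 0.0625), with library size alone (adjusted p = 0.0700), with thinned counts (adjusted p = 0.112), with *Jag2sm* replicate 3 as the sole mutant library (adjusted p = 0.423), and when WT replicate 2 or 3 or *Jag2sm* replicate 2, 3 or 4 was left out (adjusted p = 0.0560 to 0.131). *Myod1*, the myoblast determination factor, was −0.19 (adjusted p = 0.696). *Myog* lost its call when any WT library was left out (adjusted p = 0.0611, 0.0675 and 0.0893 for replicates 1 to 3) and when *Jag2sm* replicate 1 (adjusted p = 0.0572) or 2 (adjusted p = 0.1065) was, at log2 fold changes of −2.50 to −2.20. *Mef2a* was not called without *Jag2sm* replicate 2 (−1.13, adjusted p = 0.0561). The count for the list dropped to 2 without *Jag2sm* replicate 2 and to 3 without WT replicate 2 or 3. Of the NOTCH receptors and effectors 5 of 10 were tested and 1 was called. *Notch2*, a receptor, had 34.0, 40.6 and 35.4 CPM in WT and 68.1, 76.0, 90.5 and 59.3 CPM in *Jag2sm*. The genotypes did not overlap, and the log2 fold change was 0.98 ± 0.23 (SE; adjusted p = 0.0294). With the replicate block *Notch2* was 1.10 and not called (adjusted p = 0.0514). The omission of WT replicate 2, WT replicate 3, *Jag2sm* replicate 2 or *Jag2sm* replicate 3 likewise ended the call, with adjusted p-values of 0.0916, 0.159, 0.0876 and 0.0556 and log2 fold changes of 0.85 to 1.09. *Rbpj* was 0.29 (adjusted p = 0.526) and *Hes1* −0.47 (adjusted p = 0.318).

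The labelled cell type was checked against marker genes. Of 10 muscle stem cell and myoblast markers 9 were tested, and the most abundant was *Des*, which encodes the intermediate filament desmin. *Des* measured 4519, 1775 and 1842 CPM in WT and 896, 821, 694 and 1084 CPM in *Jag2sm*, and was called lower (−1.63, adjusted p = 0.0244 in edgeR) but not with the replicate block (adjusted p = 0.0596). Leaving out *Jag2sm* replicate 1 (−1.64, adjusted p = 0.0601) or *Jag2sm* replicate 2 (−1.60, adjusted p = 0.0890) also ended the call. *Pax7*, which defines MuSCs, was present in all 7 libraries, at 28.3, 94.0 and 79.2 CPM in WT and 98.6, 127, 169 and 122 CPM in *Jag2sm*. Its log2 fold change of 0.80 was not called (adjusted p = 0.174). Counts from a bulk sample cannot tell fewer cells of a type from less RNA per cell, and this holds for the Sox genes as well.

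Cell types in which Sox genes are also known were looked for in the same libraries. No endothelial, Schwann cell or immune marker passed the filter. Endothelial markers summed to 17.0, 4.44 and 5.59 CPM in WT and 13.9, 6.11, 4.36 and 7.21 CPM in *Jag2sm*, with *Tek* the most abundant and the defining genes *Kdr* and *Tie1* at 0. *Pecam1*, which encodes the CD31 used for depletion and is named here after its values were seen, had 0, 2 and 0 reads in WT and 1, 7, 6 and 2 reads in *Jag2sm*, with every mutant library above every WT library in CPM. In WT replicate 1, 0 reads allow up to 17 CPM, so separation from that library was not measured. The part of *Pecam1* in the Sox differences was not tested. Schwann cell markers summed to 5.66, 6.35 and 12.1 CPM in WT and 16.7, 3.39, 5.32 and 4.00 CPM in *Jag2sm*, led by *Ngfr*, with *Cdh19* at 0. Immune markers never exceeded 4.80 CPM in sum. They were led by *Cd68*, and *Ptprc*, *Adgre1*, *Lyz2* and *C1qa* were at 0. Fibro-adipogenic markers summed to 0, 16.5 and 16.8 CPM in WT and 29.2, 44.1, 6.78 and 31.2 CPM in *Jag2sm*. *Cd34* was their most abundant gene and the only 1 tested (0.71, adjusted p = 0.624), and *Dpt* and *Lum* were at 0. *Ly6a*, which encodes the Sca1 used for depletion, had 6 reads in WT and 43 in *Jag2sm*, and the genotypes overlapped. *Pdgfra* had 1 read in WT and 7 in *Jag2sm*. *Pi16* (3 and 1 reads) and *Dcn* (3 and 0) went the other way. These genes were named after their values were seen, and their part in the Sox differences was not tested.

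Tendon cells, whose progenitors are known to use *Sox9*, were represented by a single marker that passed the filter. The 5 tenocyte markers summed to 113, 122 and 126 CPM in WT and 51.4, 41.4, 29.5 and 75.3 CPM in *Jag2sm*, nearly all of it *Scx*, a transcription factor of tendon progenitors. The other 4 were near 0 and did not share a direction. *Mkx* had 0 reads in WT and 3, 2, 1 and 2 reads in *Jag2sm*, *Tnmd* 1 read in each genotype, *Fmod* 3 reads in WT and 0 in *Jag2sm*, and *Thbs4* 14 and 7 reads. *Scx* was called lower (−1.34, adjusted p = 0.0223), and the call was lost without WT replicate 2, WT replicate 3, *Jag2sm* replicate 1 or *Jag2sm* replicate 2, with log2 fold changes of −1.36 to −1.24 and adjusted p-values of 0.0528 to 0.0870. The 6 mural cell markers summed to 1008, 1864 and 1888 CPM in WT and 1474, 1421, 833 and 2245 CPM in *Jag2sm*. Their most abundant gene was *Acta2*, a smooth muscle actin (−0.26, adjusted p = 0.781). *Rgs5*, a pericyte gene singled out after its values were seen, measured 11.3, 12.7 and 14.0 CPM in WT and 633, 29.2, 39.7 and 24.8 CPM in *Jag2sm*. It was highest in *Jag2sm* replicate 1, the library with the most *Sox9* and with nearly all *Col2a1* reads, and all 4 mutant libraries lay above WT for both *Rgs5* and *Sox9*. The *Rgs5* difference was not called (3.73 ± 1.32 SE, adjusted p = 0.135 in edgeR). Its value in WT replicate 1 lay below the 17 CPM that 3 reads were worth there, so separation from that library is not established. The other mural markers were low and overlapped between the genotypes. *Cspg4*, also known from pericytes, had 28.3, 14.0 and 4.66 CPM in WT and 1.39, 2.04, 5.32 and 4.80 CPM in *Jag2sm*. *Pdgfrb*, a pericyte receptor, had 1, 5 and 0 reads in WT and 0, 2, 5 and 0 in *Jag2sm*, so that the library highest in *Rgs5* was lowest in *Cspg4* and had no *Pdgfrb* read. *Myh11* and *Kcnj8* had 0 reads in WT and 2 each in *Jag2sm*. The part of mural cells in the *Sox9* difference was not tested.

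The genes whose log2 CPM followed each Sox gene most closely over the 7 libraries were listed as a description. All 7 libraries share the 2 genotypes and their depths, so a high correlation is expected of any pair of genes that differ between genotypes. For *Sox4* they were *Slc39a8* (r = 0.996), *Rpl27a* (r = 0.988) and *Lefty1* (r = 0.985), where 1% of all genes reached 0.929 or more. For *Sox11* they were *Ap4s1* (r = 0.993), *Jph2* (r = 0.992) and *Clock* (r = 0.985), with 1% of genes at 0.927 or more. For *Sox9* they were *Smad7* (r = 0.981), *Thbs2* (r = 0.973) and *Tnc* (r = 0.972), with 1% of genes at 0.873 or more. *Sox8* was followed by *AW551984* (r = 0.985), *H6pd* (r = 0.980) and *Anapc13* (r = 0.966), with 1% of genes at 0.848 or more. *Sox12* was followed by *Plxnd1* (r = 0.938), *Gtpbp1* (r = 0.936) and *Ptrh2* (r = 0.888), with 1% of genes at 0.725 or more. Mean levels of *Slc39a8* (6.81 CPM), *Lefty1* (6.79), *Plxnd1* (9.30) and *Thbs2* (10.2) lay below the 17 CPM that 3 reads were worth in WT replicate 1. Their correlations thus rest on few reads there.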

How the data were processed

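RNA of MuSCs from 3 WT and 4 *Jag2sm* samples was sequenced by the authors as Nanopore direct cDNA. Per the study's methods, bases were called with dorado, reads aligned to GRCm39 with minimap2 2.17 and counted on genes with HTSeq, whose version, annotation and strand setting were not given in the sources used here. The authors deposited raw counts for 56748 gene identifiers per library, 56017 of which were found in GENCODE M39. The 5 HTSeq summary lines were left out of tests and library sizes, and reads not aligned made up 2.44% to 50.8% of a library. A deposited DESeq2 table with fold changes and p-values was not used.

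Counts were tested in edgeR 4.0.16 (R 4.3.3, quasi-likelihood, TMM, filterByExpr with a minimum count of 10, Benjamini-Hochberg over 9489 genes, called at an adjusted p under 0.05). CPM were computed with TMM sizes, and log2 CPM with a prior count of 2. Alternatives used DESeq2 1.42.0, limma-voom 3.58.1, other normalisations and filters, thinning, each library left out, and batch as a block. The batch label pairs libraries of the same number, and same-batch deviations from the group means correlated at 0.0740, 0.0144 and 0.0539. The study's methods name no block, so the fit has none. The labels do not say whether the libraries came from separate animals or cultures, so p-values may measure technical spread. Intervals are exact binomial at 95%, and limits for 0 reads use 3 counts. Both cover counting error only.

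The 7 Sox genes and the gene lists were chosen with earlier results of these data known. Genes named from each list were the 4 called genes with the smallest adjusted p, the 2 most abundant not called and the most abundant marker, and for each tested Sox gene the 3 best-correlated genes. Any other gene was named after its values were seen, and 1 gene that the rule names is not reported here.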

Additional observations from a re-analysis of the deposited data

Results flagged for a closer look

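In 3 of 12 groups of 4 libraries checked, 1 library stood far from the other 3 by Dixon's gap test at the 95% level, which flags about 1 group in 20 by chance. *Sox9* in *Jag2sm* replicate 1 was 316.7 CPM, against 95.3 to 119 CPM in the other 3 mutant libraries. The summed SoxE level of the same library was also 316.7 CPM, because it held no *Sox8* read. *Sox12* in *Jag2sm* replicate 4 was 38.4 CPM, against 20.8 to 23.2 CPM in the other 3, and rested on 48 reads.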

How the results depend on the processing

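No Sox gene changed sign under the alternatives that could fit it, which numbered 17 for *Sox4*, *Sox11* and *Sox9*, 15 for *Sox12* and *Sox8*, 7 for *Sox6* and 2 for *Sox5*. The log2 fold change of *Sox4* lost its call with the replicate block (1.02), with counts thinned to the smallest library (0.92) and with *Jag2sm* replicate 3 as the sole mutant library (0.84; a lone library assumed to vary like WT, so a missing call there says little), and ranged from 0.86 to 1.27 with 1 library left out. *Sox9* gained a call with DESeq2 (1.40), with no filter on low counts (1.40) and with the replicate block (1.30). *Sox6* gained one with DESeq2 (−3.83) and with no filter (−3.45), and ranged from −4.17 to −2.55 over the 4 libraries whose omission let it be fitted. Those 4 fits admitted *Sox6* only through WT, where it was high, so this range is no sign of stability. Calls of the fit with no filter carry little weight, for the reason given in the results of *Sox6*. *Sox11*, *Sox12*, *Sox8* and *Sox5* stayed uncalled wherever they were fitted. Pairing libraries by batch changed no other Sox call and gave 565 called genes in place of 594.

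Across all genes, 135 were called higher and 459 lower. The number higher was 241 with library size alone, 206 with DESeq2, 468 with no filter, 43 with at least 10 counts in every library, 57 with thinned counts and 37 with *Jag2sm* replicate 3 alone, and 20 to 220 with 1 library left out. The number lower was 780 with no filter, 231 with at least 10 counts in every library, 207 with thinned counts and 184 with *Jag2sm* replicate 3 alone, and 221 to 466 with 1 library left out. The share of calls that were higher was 22.7%, against 38.6% with library size alone, where the median of all genes moved from 0.0487 to 0.21, and 37.5% with no filter. Fits on thinned counts or with a minimum in every library tested fewer genes. For the other changes the cause was not tested. With 187834 reads in WT replicate 1, genes under 17 CPM rest there on fewer than 3 reads.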
